A study of Arabidopsis thaliana with 6 samples.

Results

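Serine carboxypeptidase-like (SCPL) and beta-glucosidase (BGLU) genes encode a pair of large plant enzyme families, and their transcript levels were compared between epiF3 plants and wild-type plants of Arabidopsis thaliana. The members were all genes with a symbol of SCPL (in capitals or small letters) or BGLU and a number, or the symbol PYK10, that were named alone by a probe set of the array. There were 49 such genes, 28 SCPL and 21 BGLU with PYK10 counted among them, among 13356 genes that the annotation names in this way and 22746 probe sets tested in all. The RefSeq gene table holds 90 genes with such symbols (49 SCPL, and 41 BGLU with PYK10), and those without a probe set of their own name are not analysed here. The scpl48 gene was left out by the rule. Its probe set was the one of either family past the threshold used below (a change of 1.06 on the log2 scale with a standard error of 0.16, adjusted p = 0.0384 in limma). It was higher on every epiF3 array than on any wild-type array. A count of 0 members past that threshold thus holds for the families without scpl48. The same is true of all counts of signs, rankings and medians of SCPL genes below. A further 3 probe sets that list several genes, family members among them, were also left out; their changes lay between -0.019 and 0.050.

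SCPL proteins share the fold and the catalytic serine, aspartate and histidine of serine carboxypeptidases. Some of them cut amino acids from the carboxyl end of proteins, and others, such as the sinapoyltransferases of Arabidopsis, move acyl groups from glucose esters onto acceptors such as malate or choline. Beta-glucosidases of the BGLU family release glucose from small glucosides, among them glucosides of coumarins, monolignols, flavonols and abscisic acid, and, for the myrosinases, glucosinolates. Many of these enzymes wait in the vacuole or in bodies derived from the endoplasmic reticulum (ER) until damage brings them to their substrates. The families thus meet in the same chemistry, since glucose esters feed acyl transfer by SCPL enzymes and glucosides are cleaved by BGLU enzymes.

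The RNA came from the aerial parts of 30-day-old plants grown with 12 h of daylight at 22 °C, with 3 arrays of the Col-0 wild type and 3 arrays of epiF3, whose ecotype is also given as Col-0. Protocols state that RNA was prepared from each plant, and titles call the samples biological replicates. The description of the epiF3 samples names an msh1 mutant with an albino phenotype; MSH1 is a MutS homologue of plant organelles, the labels do not settle how that name relates to epiF3, and MSH1 is not analysed here. No transgene, parent line or generation is stated beyond these names. The comparison asks how epiF3 plants differ from wild type in their transcripts.

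Each array gave 1 value per probe set on the log2 scale, normalized by the authors. In limma, 136 of the 22746 probe sets (0.598%) passed an adjusted p of 0.05, and this number ran from 33 without epiF3 replicate 2 to 402 without wild type replicate 3. On epiF3 replicate 3 the mean of 18 hybridization controls (foreign transcripts added as a reference) was 10.5, against 7.11 to 8.36 on the other arrays. Of the dimmest 40% of probe sets by mean over the 6 arrays, 47.4% had their highest value on this array. Leaf tissue was checked by its photosynthesis genes, of which 2 of 10 listed were measured: RCA (Rubisco activase) lay at 12.5 to 12.9 and PRK (phosphoribulokinase) at 10.8 to 11.8. Of the 2 root markers measured, EXPA7, a root hair expansin, lay at 2.19 to 2.63, and PYK10, itself a member, at 3.78 to 4.51, above the dimmest 40%. AMS, an anther regulator, lay at 2.16 to 2.35. GLR3.3, a glutamate receptor-like channel taken as a phloem marker, had a change of 0.47 (unadjusted p = 0.0352, adjusted p = 0.405 in limma). FMA, the other measured gene of the guard cell and phloem list, had a change of -0.22 (adjusted p = 0.778 in limma). Without epiF3 replicate 3 the change of FMA was 0.082. None of the 8 measured markers of leaf, root, flower, guard cells and phloem passed the threshold; seed markers had no measured gene.

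No member of either family passed the limma threshold, by which 0.598% of all probe sets were called. At an unadjusted p under 0.05, limma gave 3 of 28 SCPL genes, all 3 lower in epiF3 (scpl42, SCPL34 and SCPL45), and 4 of 21 BGLU genes, BGLU44 lower and BGLU25, BGLU47 and BGLU45 higher. Of all probe sets, 10.9% reached that level, 5.37% higher and 5.51% lower in epiF3. Outside the dimmest 40%, 6 of 21 members and 2058 of 13647 probe sets had such a p. Arrays did not overlap between the groups for 14 of the 49 members, against 16.9% of all probe sets. These were 6 SCPL genes, all lower in epiF3 (7.11% of all probe sets), and 8 BGLU genes, 6 higher (9.75% of all probe sets) and 2 lower. Leaving out 1 array turned the sign of the change in at least 1 of 6 such fits for 23 of the 49 members, none of them among the 7 with an unadjusted p under 0.05. No member differed by 2-fold or more, and 541 of all 22746 probe sets did. In 45 of the 49, the 95% interval of the change lay within 2-fold either way, against 20266 of all 22746 probe sets. The other 4 members were scpl42, BGLU44, BGLU25 and BGLU47. Values of the dim probe sets crowd toward the floor of the array, where a change is understated, so the interval says more for the 21 members outside the dimmest 40% (17 of 21 within 2-fold, against 85.2% of all probe sets of that level).

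**Figure D1:**
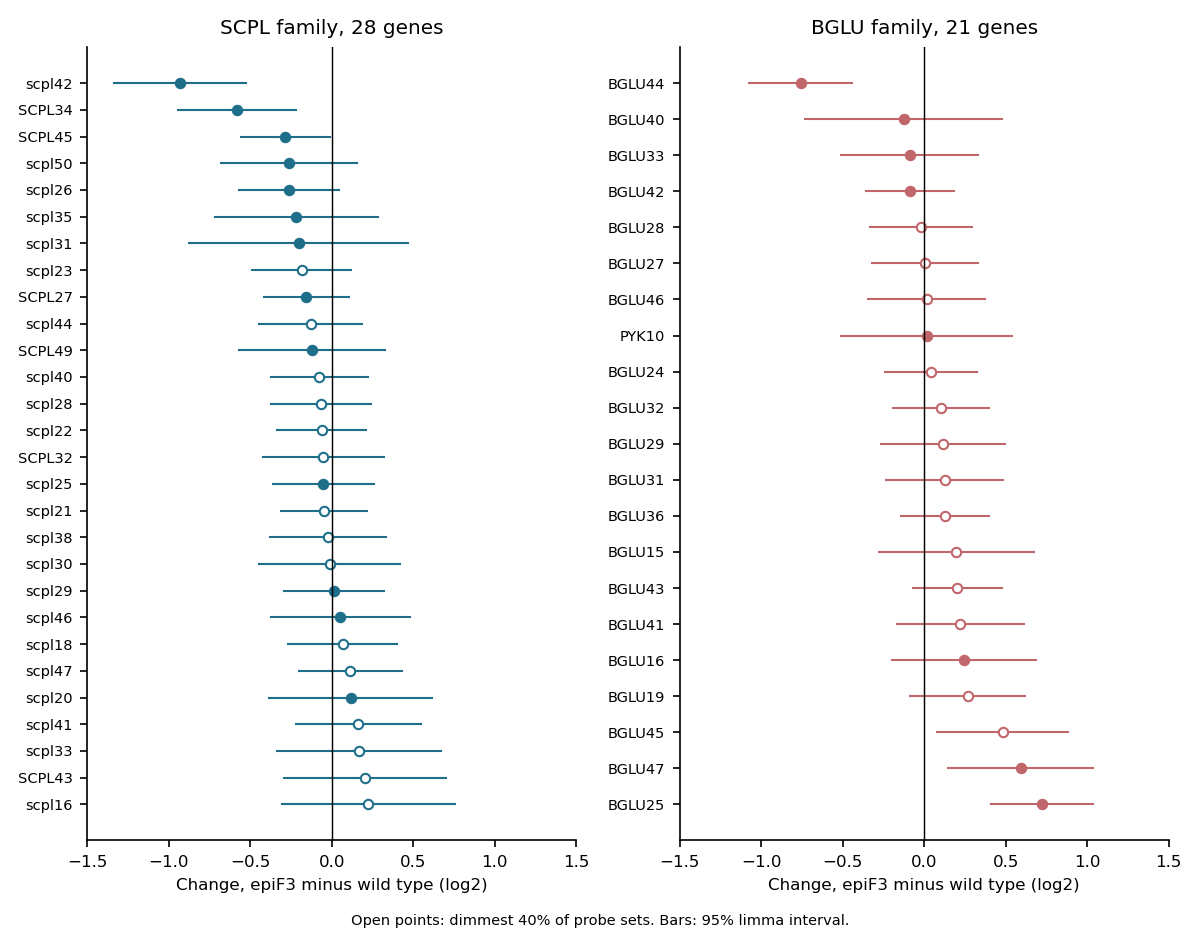
Change of each member, epiF3 minus wild type on the log2 scale, with its 95% limma interval, in the SCPL family (28 genes, left) and the BGLU family (21 genes, right). Open points are members in the dimmest 40% of probe sets. Most SCPL points lie left of 0 and most BGLU points right of it, with scpl42 at -0.93 and BGLU25 at 0.72 at the ends.

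Among the SCPL genes analysed, which leave out scpl48, the largest change was that of scpl42 (AT5G42240). The sources used here give no function for scpl42 beyond the family name. Its log2 values were 6.15, 6.21 and 5.81 on the wild-type arrays and 5.35, 5.15 and 4.87 on the epiF3 arrays. The lowest wild-type value was above the highest epiF3 value. The change was -0.93 with a standard error of 0.17 (95% interval -1.34 to -0.53), and its adjusted p in limma was 0.0704. That p ran from 0.0231 to 0.278 over the alternative settings. The gene passed the threshold with array weights, which count epiF3 replicate 3 least, and without wild type replicate 3 (adjusted p = 0.0433 in limma). These settings called 449 and 402 of all probe sets, against 136 as analysed.

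SCPL34 (AT5G23210) had values of 5.42, 5.21 and 5.27 in wild type and 4.78, 4.92 and 4.45 in epiF3. The groups did not overlap, and the epiF3 arrays were more spread than the wild-type arrays. Its change was -0.58 with a standard error of 0.16 (adjusted p = 0.191 in limma). SCPL45 (AT1G28110) was nearly level among the wild-type arrays, at 6.48, 6.47 and 6.46, and lower in epiF3, at 6.27, 6.21 and 6.08. Its change of -0.28 (standard error 0.12) had an adjusted p of 0.437 in limma, which moderates so small a spread among replicates.

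Smaller differences of the same sign were seen in several other SCPL genes of middle or high signal. For scpl26 the values were 7.49, 7.26 and 7.28 in wild type and 7.18, 6.94 and 7.13 in epiF3, again without overlap, and the change was -0.26 (standard error 0.13, adjusted p = 0.546 in limma). For scpl50 they were 5.99, 5.88 and 5.90 against 5.94, 5.75 and 5.29. The value on epiF3 replicate 3 stood below the other 5 there, and the change was -0.26 (standard error 0.18, adjusted p = 0.641 in limma), or -0.078 without that array. SCPL27 had values of 5.33, 5.36 and 5.34 against 5.20, 5.18 and 5.18, a change of -0.16 with no overlap between groups. The remaining gene without overlap was scpl23, a dim one, at 2.65, 2.65 and 2.73 against 2.65, 2.51 and 2.32, where the highest epiF3 value was close to the lowest wild-type value. Its change was -0.18 (standard error 0.13, adjusted p = 0.656 in limma), or -0.10 without epiF3 replicate 3.

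Other SCPL genes of high signal had changes within the spread of their replicates. SCPL49, also named carboxypeptidase Y, the vacuolar protease, was at 7.71, 7.04 and 7.70 in wild type and 7.33, 7.42 and 7.33 in epiF3. Its wild-type values enclosed all epiF3 values (change -0.12, standard error 0.19, 95% interval -0.57 to 0.33, adjusted p = 0.843 in limma), and the change ran from -0.34 to -0.0079 with 1 array left out. For scpl35 the values were 7.85, 7.25 and 7 against 7.05, 7.17 and 7.23, so that wild type replicate 1 alone stood above the rest; without that array the change turned from -0.22 (standard error 0.22, adjusted p = 0.737 in limma) to 0.025. The values of scpl29 were 7.42, 7.09 and 7.25 against 7.33, 7.25 and 7.21, a change of 0.010 (standard error 0.13, adjusted p = 0.987 in limma). The widest spread among the wild-type arrays was that of scpl31, from 2.94 to 4.14, against 3.03 to 3.42 in epiF3. With scpl48 left out, the highest SCPL change was 0.22, for scpl16. This gene read 2.88 on epiF3 replicate 3 and 1.94 to 2.28 on the other 5 arrays. Without epiF3 replicate 3 its change was -0.032.

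**Figure D2:**
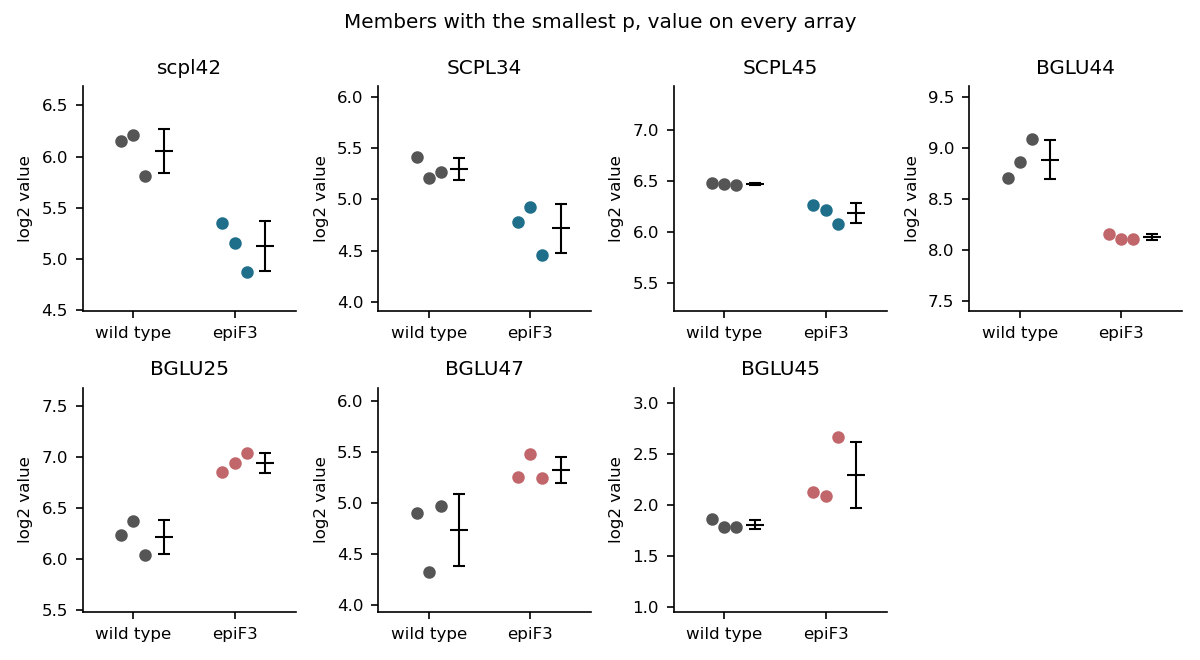
Log2 value on every array for the 7 members with an unadjusted limma p under 0.05 (points, in the order of replicates 1 to 3), with the mean and SD of each group beside them (n = 3). Each panel spans the same range of 2.2 log2 units; groups do not overlap in any panel, and BGLU45 has 1 epiF3 array, at 2.66, apart from the other 2.

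In the BGLU family the genes at the ends had opposite signs. BGLU44 (AT3G18080), for whose enzyme activity on mannose-containing oligosaccharides has been described, had values of 8.71, 8.86 and 9.08 in wild type and 8.16, 8.11 and 8.10 in epiF3. The epiF3 arrays lay close together and below every wild-type array. Its change was -0.76 with a standard error of 0.14 (95% interval -1.07 to -0.44, adjusted p = 0.065 in limma). It passed the threshold with trended moderation (adjusted p = 0.0421 in limma) and with array weights (0.0247), and its adjusted p reached 0.269 under other settings. Trended moderation called 168 and array weights 449 of all probe sets, against 136 as analysed. BGLU25 (AT3G03640) had values of 6.23, 6.37 and 6.05 in wild type and 6.85, 6.94 and 7.04 in epiF3. All its epiF3 arrays were above all wild-type arrays, with a change of 0.72 and a standard error of 0.14 (95% interval 0.41 to 1.04, adjusted p = 0.0719 in limma). It passed with array weights (adjusted p = 0.0379), and its adjusted p reached 0.278 elsewhere.

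BGLU45 and BGLU46 act on glucosides of monolignols, the building blocks of lignin, and BGLU47 is grouped with them by sequence. BGLU47 had values of 4.90, 4.33 and 4.97 in wild type and 5.26, 5.47 and 5.24 in epiF3. The groups did not overlap, wild type replicate 2 being lower than the other wild-type arrays, and the change was 0.59 (standard error 0.19, adjusted p = 0.286 in limma), or 0.39 without that array. BGLU45 was dim, at 1.86, 1.78 and 1.78 against 2.12, 2.08 and 2.66. Its change was 0.48 (standard error 0.17, adjusted p = 0.352 in limma), or 0.30 without epiF3 replicate 3, the array that held the value of 2.66. BGLU46 had a change of 0.014, with overlapping groups.

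Groups overlapped for BGLU33, BGLU40 and PYK10 but not for BGLU42. BGLU33, which frees abscisic acid from its glucose ester in the vacuole, was at 7.33, 7.68 and 8.02 in wild type and 7.67, 7.55 and 7.55 in epiF3 (change -0.090, standard error 0.18, 95% interval -0.51 to 0.33, adjusted p = 0.877 in limma). BGLU40 was at 7.23, 6.6 and 7.44 against 6.61, 6.92 and 7.35, with a change of -0.13 (standard error 0.26, adjusted p = 0.881 in limma) whose 95% interval, -0.73 to 0.48, was wide. Without wild type replicate 3 the changes of BGLU33 and BGLU40 were 0.081 and 0.048. PYK10, the main beta-glucosidase of ER bodies in roots, was at 4.51, 4.11 and 3.85 against 3.78, 4.31 and 4.43, a change of 0.016 (standard error 0.23). BGLU42, which acts in induced systemic resistance, had the same deposited value, 5.95, on all 3 wild-type arrays, and 5.76, 5.91 and 5.91 in epiF3. Its arrays therefore did not overlap although the change was only -0.089.

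The other BGLU genes were mostly dim. BGLU15, which takes part in the breakdown of flavonol glycosides, had a change of 0.20 (0.051 without wild type replicate 1), and BGLU28, which degrades glucosinolates under sulphur shortage, one of -0.019. BGLU16 was at 5.66, 6 and 5.98 in wild type and 5.77, 6.21 and 6.39 in epiF3, a change of 0.24 with overlap, or 0.11 without epiF3 replicate 3. BGLU19 (2.22, 2.29 and 2.30 against 2.43, 2.36 and 2.82) and BGLU43 (1.85, 1.92 and 1.97 against 2.04, 2.13 and 2.18) were higher on every epiF3 array. Their changes of 0.27 and 0.20 (standard errors 0.15 and 0.12) had adjusted p of 0.584 and 0.593 in limma; without epiF3 replicate 3 they were 0.13 and 0.17. BGLU36 was the last gene without overlap, with a change of 0.13 and all 6 values in the lowest 25% of their arrays.

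The families were then set side by side. The median change was -0.056 over the 28 SCPL genes and 0.12 over the 21 BGLU genes, beside a median of 0.03 over all probe sets tested, so the medians lay 0.087 below and 0.086 above it. Changes were positive for 9 of 28 SCPL genes and 16 of 21 BGLU genes, beside 55.7% of all probe sets. Scaling each array to a common median moved all of these upward together and turned the SCPL median to 0.015, with the median of all probe sets at 0.10. Of the 17 alternatives, 6 cannot move a family median relative to that of all probe sets. Under 10 of the other 11 the SCPL median was below and the BGLU median above it. The exception was the fit without the dimmest 40%, where the BGLU median of the 8 genes left was -0.036, beside -0.024 for all probe sets left. The BGLU median lay only 0.012 above that of all probe sets after cyclic loess and 0.022 above after quantile normalization. With array weights it lay 0.028 above, and without epiF3 replicate 3 0.011 above. In the rest of those 10 it lay 0.071 to 0.13 above. The SD of the BGLU median between arrays of a group was 0.088. The difference between the family medians was 0.17, and it lay between 0.12 and 0.22 under the alternatives. The SD of that difference between arrays of a group was 0.096. Members of a family are not replicates, and these medians are a description without a test.

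**Figure D3:**
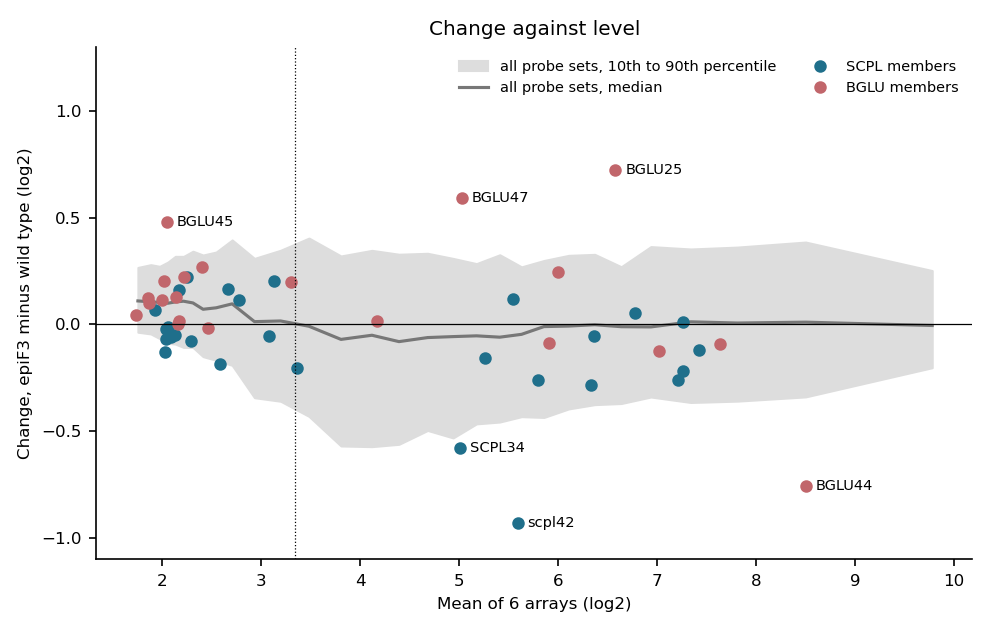
Change, epiF3 minus wild type, against the mean of the 6 arrays, both on the log2 scale, for SCPL and BGLU members (points). The grey line is the median and the grey band the 10th to 90th percentile of all probe sets in 30 groups of level, and the dotted line marks the dimmest 40%. The grey line is above 0 on the left, where 13 of 21 BGLU genes and 15 of 28 SCPL genes lie.

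The BGLU values varied with signal level and between the epiF3 arrays. In the dimmest 40%, 12 of 13 BGLU genes and 6 of 15 SCPL genes had positive changes, beside 70.6% of all probe sets of that level. Outside it, 4 of 8 BGLU genes and 3 of 13 SCPL genes were positive, beside 45.8%. On epiF3 replicate 3 the median deviation from the wild-type mean was 0.24 for the 13 dim BGLU genes, 0.10 for the 15 dim SCPL genes and 0.17 for all dim probe sets. On epiF3 replicates 1 and 2 it was 0.065 and 0.096 for dim BGLU genes, and 0.037 and 0.018 for all dim probe sets. For the 8 BGLU genes outside the dimmest 40% the median deviation was -0.15, 0.060 and 0.27 on epiF3 replicates 1, 2 and 3. For all probe sets of that level it was 0.022, 0.013 and -0.10. Without epiF3 replicate 3 the BGLU median was 0.036 and 13 of 21 genes were positive, and the SCPL median was -0.088 with 5 of 28 positive. In that fit 55.9% of all probe sets were positive. After cyclic loess, which levels such trends with signal, 12 of 21 BGLU and 8 of 28 SCPL genes were positive, beside 49.8% of all probe sets. The part of signal level and of that array in the difference between the families was not tested further.

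Among the 13 SCPL genes outside the dimmest 40%, the median change was -0.20, beside -0.024 for all probe sets of that level. The median deviation of these 13 genes from wild type was -0.17, -0.16 and -0.15 on epiF3 replicates 1, 2 and 3. On the wild-type arrays it was 0.11, -0.087 and -0.010. For all probe sets of that level the values on the epiF3 arrays were 0.022, 0.013 and -0.10. The SCPL genes thus stood apart from them less on replicate 3 than on replicates 1 and 2. Without wild type replicate 2 the median of the 13 genes was -0.28 and 1 of 13 was positive, beside 45.4% of all probe sets of that level. Without wild type replicate 1 or 3 it was -0.16 each time, with 4 of 13 positive, beside 46.2% and 46.4%. Leaving out epiF3 replicate 1 or 2 gave -0.16 and -0.19. Leaving out epiF3 replicate 3 gave -0.15 with 2 of 13 positive, beside 53.3%.

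**Figure D4:**
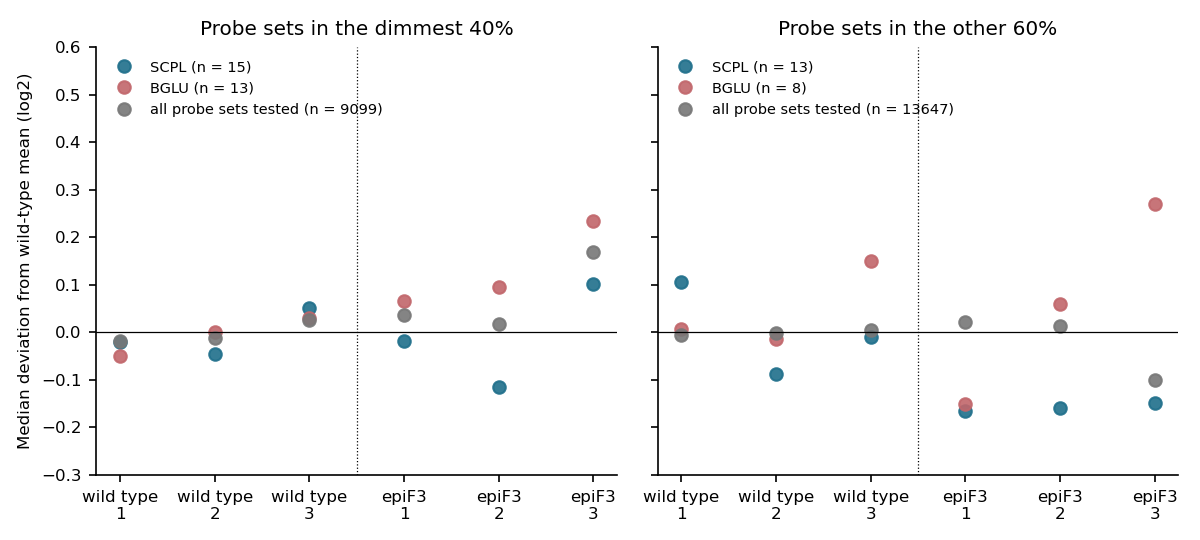
Median deviation from the wild-type mean (log2) on each array for SCPL genes, BGLU genes and all probe sets tested, in the dimmest 40% (left) and the other 60% of probe sets (right). On the left all sets are highest on epiF3 replicate 3 (0.10, 0.24 and 0.17). On the right the SCPL genes lie between -0.17 and -0.15 on the 3 epiF3 arrays, and all probe sets at 0.022, 0.013 and -0.10.

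Several members lie next to each other in the genome, as tandem copies do in both families. In the order of protein-coding genes of RefSeq (TAIR10.1), 15 of the 49 members stood beside another member, in 7 runs that held 11 BGLU and 4 SCPL genes. BGLU44 (-0.76) stands beside BGLU43 (0.20), whose probe set read 1.91 ± 0.059 in wild type (SD, n = 3), near the floor. BGLU45 (0.48) stands beside BGLU46 (0.014), and BGLU16 (0.24) beside BGLU27 (0.0037). The run of BGLU15, BGLU28 and BGLU29 had changes of 0.20, -0.019 and 0.12, and BGLU31 and BGLU32 had changes of 0.13 and 0.10; without epiF3 replicate 3 those of BGLU29, BGLU31 and BGLU32 were -0.050, 0.028 and 0.036. In the SCPL family, scpl26 (-0.26) stands beside scpl28 (-0.066), and scpl22 (-0.060) beside scpl23 (-0.18). By their locus names scpl41 (AT5G42230) and scpl42 (AT5G42240) lie near each other, but they were not adjacent in the gene order. Their changes were 0.16 for scpl41, a dim gene, and -0.93 for scpl42. Differences between neighbours were not tested, nor was binding of one copy's transcripts to the probes of another.

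Genes that make or handle the substrates of these enzymes were examined in 4 lists. Of 22 such genes measured, 0 passed the limma threshold (0.598% of all probe sets did). Changes were positive for 13 and negative for 9, beside 55.7% positive among all probe sets. In limma, 6 had an unadjusted p under 0.05 (10.9% of all probe sets did). In the sinapate ester list, 5 of 19 genes were measured, 2 positive and 3 negative, with a median of -0.12. ALDH2C4, the aldehyde dehydrogenase that yields ferulate and sinapate, was at 8.01 ± 0.32 in wild type and 7.41 ± 0.17 in epiF3 (SD, n = 3), a change of -0.60 (adjusted p = 0.263 in limma). UGT84A3, a glucosyltransferase that makes glucose esters of such acids, had a change of 0.47 (adjusted p = 0.545 in limma), which was 0.28 when wild type replicate 1 was left out and 0.73 when replicate 3 was. The sinapoyltransferase genes SNG1 and SNG2 are not analysed here, nor are the other 8 listed family members that go by other names, myrosinases among them.

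Of the list of coumarin synthesis and small-molecule glucosyltransferases, 8 of 12 genes were measured, 2 positive and 6 negative, with a median of -0.18. UGT72E1, which attaches glucose to monolignol aldehydes, had values of 4.66, 5.1 and 5.18 in wild type and 4.45, 4.1 and 4.17 in epiF3, without overlap. Its change was -0.74 with a standard error of 0.18 (adjusted p = 0.151 in limma). AT3G13610, also named F6'H1, the hydroxylase that leads to the coumarin scopoletin, had a change of -1.11, with wild-type values from 2.83 to 5.12 and epiF3 values from 2.60 to 3.14 that overlapped them. It was -0.55 when wild type replicate 2 was left out and -1.69 when replicate 3 was (adjusted p = 0.479 in limma with all arrays). In the ER body and myrosinase list 2 of 18 genes were measured. NAI2, a protein needed to form ER bodies, had a change of 0.58 without overlap (adjusted p = 0.335 in limma), and NAI1, their transcription factor, one of 0.31; both were highest on epiF3 replicate 3, without which the changes were 0.35 and 0.18.

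In the flavonoid glycoside list, all 7 measured genes of 16 had positive changes (55.7% of all probe sets did), with a median of 0.65. Wild type replicate 1 was the highest wild-type array for all 7, so their signs are not separate observations. UGT78D1, a flavonol rhamnosyltransferase, was at 7.52 ± 0.41 in wild type and 8.04 ± 0.18 in epiF3 (SD, n = 3), a change of 0.52 (adjusted p = 0.43 in limma). AT1G06000 had a change of 0.78 (adjusted p = 0.42 in limma), and the change of DFR, which makes anthocyanin precursors, was 0.97 (standard error 0.56), and ran from 0.53 to 1.69 with 1 array left out. The sign turned for AT5MAT, an anthocyanin malonyltransferase, from 0.13 to -0.046 or -0.0013 when wild type replicate 2 or 3 was left out. Groups overlapped for all 7, since wild type replicate 1 was above at least 1 epiF3 array in each: DFR read 7, 4.99 and 4.67 on the wild-type arrays and 6.06, 6.56 and 6.95 on the epiF3 arrays.

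**Figure D5:**
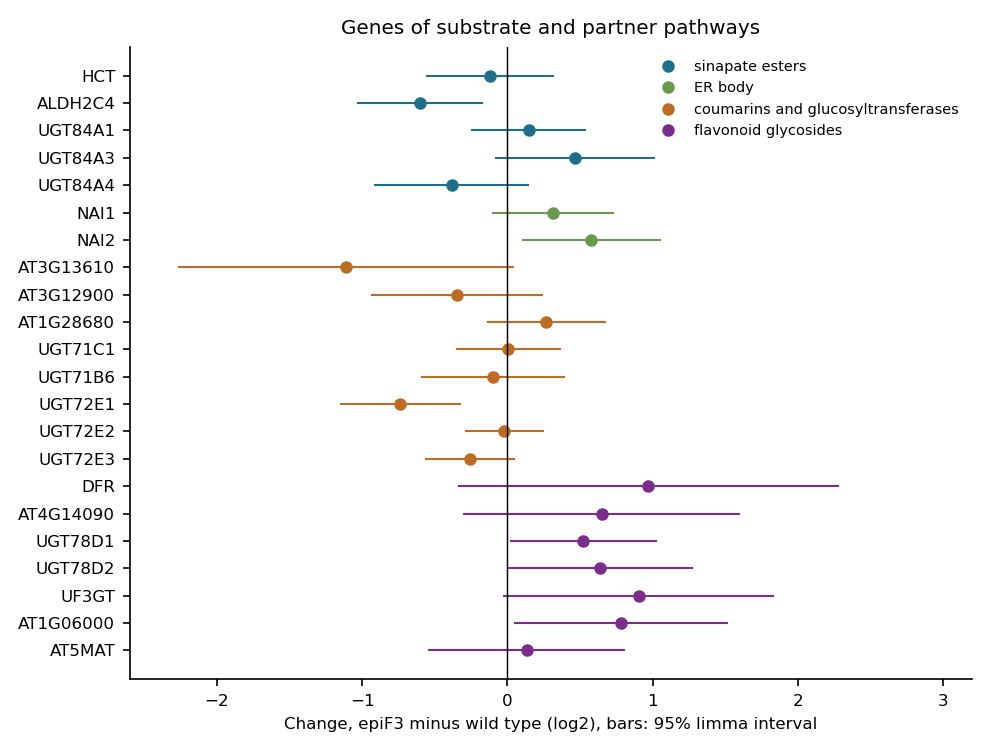
Change, epiF3 minus wild type on the log2 scale, with its 95% limma interval, for the 22 measured genes of the 4 lists, coloured by list. The 7 flavonoid genes lie right of 0 with wide intervals, and UGT72E1 lies at -0.74.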

How the data were processed

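The values are log2 signals deposited by the authors, 1 for each probe set on each array. The submitters' processing notes name RMA and the affy package, without versions or a background method. The log2 scale was taken from the range of the values. Of 22810 probe sets, 64 array controls were set aside and 22746 tested. The platform annotation names 1 gene for 13513 of them, several for 503, and leaves 8730 unnamed here; symbols were checked by gene ID in RefSeq (TAIR10.1), where all 49 members matched. Each member had 1 probe set. Groups (3 arrays each) came from the titles. epiF3 minus wild type was tested with limma 3.58.1 in R 4.3.3 (lmFit, eBayes, two-sided, no block, Benjamini-Hochberg over all 22746, threshold 0.05, no filter). The number of arrays limits the precision. In 5 simulated runs over 22746 probe sets with 200 changed, the same fit recovered 74.2% of 2-fold and 99% of 4-fold changes, with noise drawn separately for each probe set. Of its calls, 5.56% were false. Changes under 2-fold, as all members had, and shifts of a whole array were not simulated.

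Full statistics were given for the 6 members of each family with the smallest p and the 4 brightest. Tandem neighbours and the 2 genes of each pathway list with the smallest p were named. GLR3.3, FMA, AT5MAT, scpl16, scpl31, scpl41, SCPL27, the other BGLU genes and DFR were chosen for mention after their values were seen. Members and lists were chosen with earlier results of these data known. Alternatives were other scalings, filters, moderation, array weights, the replicate block, other thresholds and leaving out each array. Deviations from the group means were not shared by arrays of the same number (r = -0.077, -0.042 and -0.045 across probe sets), so the number was not taken to pair them. Figures used matplotlib 3.10.9 in Python 3.11.15.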

Additional observations from a re-analysis of the deposited data

Results flagged for a closer look

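The hybridization controls, no part of the comparison of the families, averaged 10.5 on epiF3 replicate 3 and 8.36 on epiF3 replicate 2, above the highest wild-type array (8.21). All 18 controls were highest on epiF3 replicate 3. Groups of 3 arrays are too small for a test of outlying arrays.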

How the results depend on the processing

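No member of either family passed the threshold as analysed, and this count was also 0 in each family under 13 of the 15 alternatives that could raise it (both stricter thresholds cannot): 1 SCPL gene passed with array weights and 1 without wild type replicate 3 (scpl42 both times), and 2 BGLU genes passed with array weights (BGLU44 and BGLU25) and 1 with trended moderation (BGLU44). With 1 array left out, 0 to 1 SCPL genes passed. Pathway genes past the threshold stayed at 0 under these 15. The count of all probe sets, 136 as analysed, was 449 with array weights, 33 at a threshold of 0.01 and 74 with the replicate block, which passed no member, and 33 to 402 with 1 array left out. The SCPL median was 0.015 after median centring, -0.12 after cyclic loess and -0.203 without the dimmest 40%; the BGLU median was 0.011 after cyclic loess and -0.036 without the dimmest 40%, a filter that leaves 13 SCPL and 8 BGLU genes. Leaving out 1 array turned signs for scpl35 (from -0.40 without wild type replicate 3 to 0.025 without wild type replicate 1), scpl29 (from -0.069 without wild type replicate 2 to 0.093 without wild type replicate 1; it was also negative, at -0.023, when epiF3 replicate 1 was left out), BGLU33 (from -0.26 without wild type replicate 1 to 0.081 without wild type replicate 3) and BGLU40 (from -0.37 without wild type replicate 2 to 0.049 without epiF3 replicate 1, and 0.048 without wild type replicate 3). Causes other than the fewer genes or arrays were not tested. Taking the mean over probe sets of a gene was not run, since each member has 1. Values near the floor limit what the dim probe sets can show.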
